A study of Mus musculus with 6 samples.

Results

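Transcripts of megakaryocytes and platelets were followed through 6 RNA-seq libraries of fetal liver erythroid cells. The set holds 9 genes, chosen by symbol, out of the 23094 gene-named rows of the deposited expression table: Pf4, Ppbp, Itga2b, Itgb3, Gp1ba, Gp1bb, Gp5, Gp9 and Treml1. All 9 symbols were found, each on 1 row. Itga2b shares its row with Gpatch8 and Gp1bb shares its row with Sept5, so those values cannot be given to a single gene. The cells were C57BL/6 mouse cells of embryonic day 13.5, sorted on the transferrin receptor CD71 and the red cell antigen Ter119. The labels assign 3 libraries to Tfam WT and 3 to Tfam KO (Tfam encodes a mitochondrial DNA-binding transcription factor) and number them 1 to 3 in each group. They name no Cre driver, litter or batch and do not say whether the libraries came from separate embryos, so the tests measure the spread between libraries only. Values are RPKM, read counts divided by transcript length and by the mapped reads of the library, and levels of different genes are therefore per length.

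Megakaryocytes are the bone marrow and fetal liver cells that release platelets, and they share a bipotent progenitor and several transcription factors with the red cell lineage. Platelets bind von Willebrand factor through a complex built from Gp1ba, Gp1bb, Gp9 and Gp5, and fibrinogen through the integrin pair Itga2b (CD41) and Itgb3 (CD61). Pf4 and Ppbp are chemokines stored in their alpha granules, and Treml1 is a receptor that reaches the platelet surface on activation. GATA, ETS and RUNX proteins are the transcription factor families best known for driving these genes.

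All 9 genes had values above 0 in every library, and 8 of the 9 were lower in both libraries numbered 3 (WT replicate 3 and KO replicate 3) than in each of the other 4, against 21.9% of the 11058 rows with a mean of at least 0.1 RPKM. The exception was Gp9. The low level of these 2 libraries was known when the genes were chosen, so this count is a description and not a test. In 0 of 9 members did the KO libraries lie all above or all below the WT libraries, against 2.18% (above) and 2.36% (below) of the 8302 rows with a mean of at least 1 RPKM. For the 8 members low in both libraries numbered 3 no such split was possible, because each group holds 1 of the low libraries. This count therefore does not measure a difference between KO and WT. In bulk RNA fewer megakaryocytes or platelets in a library cannot be told apart from less of their RNA per cell. WT replicate 3 also stands apart as a whole, with an RPKM sum of 814665 against 422534 to 535013 in the other 5 libraries.

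The 9 genes lie on 5 chromosomes. Because most of them were low in the same libraries, the start regions of 5 are shown to let their letters be compared: the granule chemokine neighbours Pf4 and Ppbp, the receptor subunits Gp1ba and Gp5, which were low in both libraries numbered 3, and Gp9, which was not. The sequences are RefSeq's windows of 250 bases before to 50 after the transcript start, on build GRCm38.p6, 5′ to 3′ on the gene's strand, and their coordinates are not on the build of the expression table. Capitals mark matches on either strand to 4 families of words. The GATA words were AGATAA or AGATAG and likewise TGATAA or else TGATAG. The ETS words were CGGAAG or else AGGAAG, the RUNX words TGTGGT or else TGCGGT, and the TATA word was TATAAA. No match overlaps another. The windows are chr5:90772185-90772484 (+ strand) for Pf4, chr5:90768268-90768567 (+) for Ppbp, chr11:70638872-70639171 (+) for Gp1ba, chr16:30310732-30311031 (- strand) for Gp5 and chr6:87777820-87778119 (+) for Gp9.
Pf4: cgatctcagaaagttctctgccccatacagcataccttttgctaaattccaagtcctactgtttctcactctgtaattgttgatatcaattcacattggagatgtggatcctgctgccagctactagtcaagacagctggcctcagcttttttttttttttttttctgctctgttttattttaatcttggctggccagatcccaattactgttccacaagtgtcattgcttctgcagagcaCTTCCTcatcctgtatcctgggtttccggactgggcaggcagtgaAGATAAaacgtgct
Ppbp: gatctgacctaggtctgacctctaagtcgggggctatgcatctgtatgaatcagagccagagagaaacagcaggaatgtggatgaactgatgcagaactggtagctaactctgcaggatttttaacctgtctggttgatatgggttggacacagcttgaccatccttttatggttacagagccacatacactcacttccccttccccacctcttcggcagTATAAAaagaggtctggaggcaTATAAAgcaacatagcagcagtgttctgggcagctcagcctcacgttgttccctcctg
Gp1ba: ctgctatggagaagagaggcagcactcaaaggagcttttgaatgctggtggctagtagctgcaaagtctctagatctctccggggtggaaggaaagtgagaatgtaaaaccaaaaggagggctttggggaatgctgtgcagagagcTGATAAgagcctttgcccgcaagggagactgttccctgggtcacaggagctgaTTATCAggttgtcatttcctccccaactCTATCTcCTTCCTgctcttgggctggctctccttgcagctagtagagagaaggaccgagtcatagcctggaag
Gp5: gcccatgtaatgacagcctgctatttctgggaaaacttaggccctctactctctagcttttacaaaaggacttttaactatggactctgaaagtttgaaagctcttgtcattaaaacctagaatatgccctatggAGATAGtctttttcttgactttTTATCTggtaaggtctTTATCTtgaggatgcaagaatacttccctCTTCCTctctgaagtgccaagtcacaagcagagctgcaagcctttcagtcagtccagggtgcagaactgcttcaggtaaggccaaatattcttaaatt
Gp9: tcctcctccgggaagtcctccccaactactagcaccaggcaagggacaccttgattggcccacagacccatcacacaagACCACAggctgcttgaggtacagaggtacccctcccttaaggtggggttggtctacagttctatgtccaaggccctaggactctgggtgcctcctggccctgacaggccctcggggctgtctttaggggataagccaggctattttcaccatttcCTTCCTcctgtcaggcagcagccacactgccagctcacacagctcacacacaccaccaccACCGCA

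A GATA word stood in 4 of the 8 member windows that the RefSeq table holds (it lacks Itgb3) and in 29.8% of all 32851 windows of the table. Gp1ba and Gp5 held 3 GATA words each, and Pf4 and Gp1bb held 1 each. An ETS word stood in 6 of 8 windows against 46.5% of all windows, a RUNX word in 1 of 8, that of Gp9, against 22.4%, and the TATA word in 1 of 8, that of Ppbp, against 13.6%. Such a match is a run of letters and not a measured binding site. The window of Gp9, the member not low in both libraries numbered 3, held 1 ETS word, 2 RUNX words and no GATA word from this set, and that of Treml1, which was among the lowest in the libraries numbered 3, held none of the words.

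**Figure D1:**
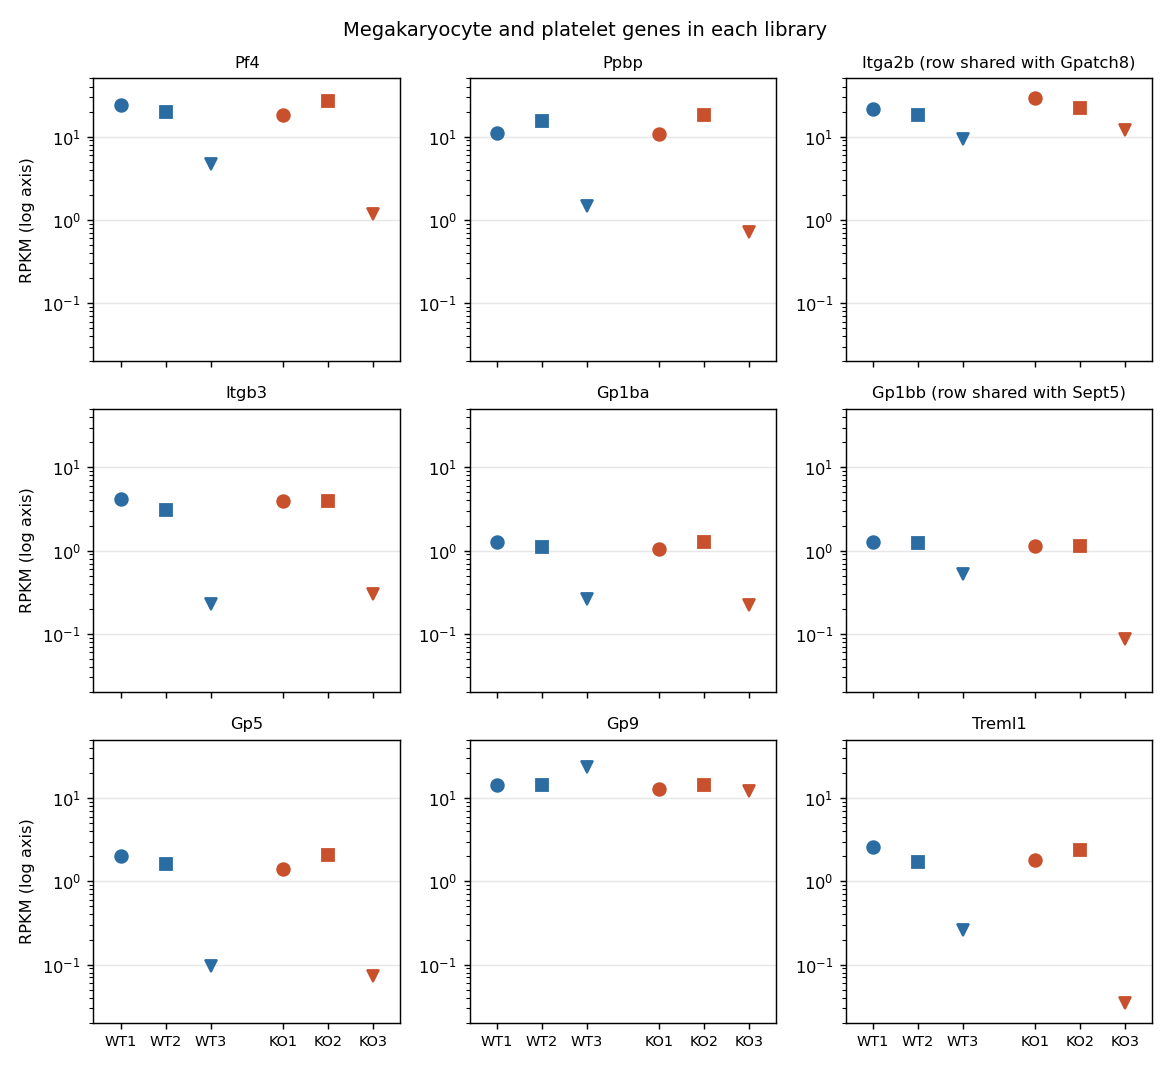
RPKM of each of the 9 genes (vertical log axis) in the 3 WT libraries (blue) and the 3 KO libraries (orange), with circles, squares and triangles for the libraries numbered 1, 2 and 3. The triangles lie lowest in 8 panels, while in the Gp9 panel WT3 is highest at 23.4 RPKM and KO3 stands at 12.04 RPKM.

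Both granule chemokines were low in the libraries numbered 3. Pf4 was at 24.2, 19.7 and 4.67 RPKM in WT replicates 1, 2 and 3 and at 18.3, 26.8 and 1.17 RPKM in KO replicates 1, 2 and 3. WT replicate 3 thus held 21.3% of the mean of the other WT libraries and KO replicate 3 held 5.20% of the mean of the other KO libraries. Ppbp, whose gene is the nearest neighbour of Pf4 on chromosome 5, was at 11.1, 15.5 and 1.46 RPKM in WT and at 10.8, 18.4 and 0.718 RPKM in KO. Its level in the libraries numbered 3 was 10.96% and 4.90% of the others of the same group. In both chemokine genes KO replicate 2 was highest and KO replicate 3 lowest. WT and KO overlapped throughout.

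The fibrinogen receptor is made of Itgb3 and Itga2b. Itgb3 was at 4.11, 3.11 and 0.226 RPKM in WT and at 3.90, 3.97 and 0.302 RPKM in KO, so that the libraries numbered 3 held 6.26% and 7.68% of the others. The row that joins Itga2b and Gpatch8 was at 21.7, 18.2 and 9.50 RPKM in WT and at 28.8, 22.2 and 12.02 RPKM in KO. It stood at 47.6% and 47.1% in the libraries numbered 3, far above the share of Itgb3. How much of this row comes from each of its 2 genes was not tested. In the RefSeq table the 2 genes do not overlap, and Gpatch8 is the second nearest gene to Itga2b.

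Of the von Willebrand factor receptor genes, 3 were low in both libraries numbered 3. Gp1ba, the ligand-binding chain, was at 1.26, 1.12 and 0.264 RPKM in WT and at 1.05, 1.27 and 0.219 RPKM in KO. Gp5, an accessory chain that thrombin cleaves, was at 2.02, 1.63 and 0.0955 RPKM in WT and at 1.41, 2.07 and 0.0723 RPKM in KO. For Gp5 the libraries numbered 3 held 5.23% and 4.15% of the others, against 22.2% and 18.9% for Gp1ba. The row of Gp1bb and Sept5, 2 genes that overlap in the RefSeq table, was at 1.27, 1.24 and 0.525 RPKM in WT and at 1.14, 1.14 and 0.0873 RPKM in KO. Here the WT and KO libraries numbered 3 differed, with 41.7% and 7.68% of the others.

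Gp9, the remaining subunit of the same receptor, did not share the pattern. It was at 14.3, 14.4 and 23.4 RPKM in WT and at 12.8, 14.3 and 12.04 RPKM in KO, and WT replicate 3 was the highest library rather than a low one. Its shares in the libraries numbered 3 were 163% in WT and 89.0% in KO. Per length, Gp9 also stood above its partners, whose highest level was 2.07 RPKM (Gp5 in KO replicate 2). No other gene of the RefSeq table overlaps Gp9, and the table lists 4 transcripts for it. Which transcript the deposited RPKM stands for is not given in the sources used here.

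Treml1, the activation receptor of the alpha granule, was at 2.60, 1.71 and 0.259 RPKM in WT and at 1.80, 2.37 and 0.0345 RPKM in KO. The KO library numbered 3 held 1.65% of the other KO libraries, the lowest share among the 9 rows, and the WT library held 12%. Among the 4 libraries numbered 1 and 2 the highest level of a member was 1.12 (Gp1bb, Gp9) to 1.70 (Ppbp) times the lowest.

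**Figure D2:**
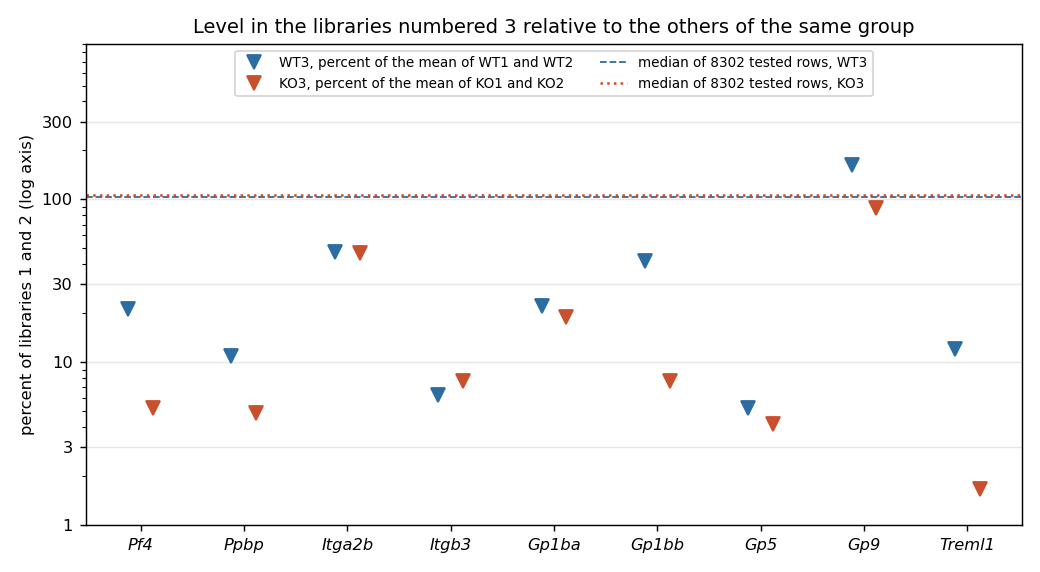
Level of each gene in WT3 (blue) and KO3 (orange) as a percent of the mean of libraries 1 and 2 of the same group (vertical log axis), with the median over the 8302 tested rows as lines at 103% and 106%. The genes other than Gp9 lie below both lines in WT3 and in KO3, from 47.6% for the Itga2b row down to 1.65% for Treml1.

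The members were then set against all rows by the highest of the libraries numbered 3 and the lowest of the other 4. This measure, and its limits of 2-fold and 4-fold, were chosen after the values were seen, and the low level of these libraries was known when the genes were chosen, so no test is given. Of the 8302 rows with a mean of at least 1 RPKM, 18.2% had both libraries numbered 3 below the other 4, 0.361% (30 rows) by at least 2-fold and 0.169% (14 rows) by at least 4-fold. The members numbered 7 among these rows, and 6, 5 and 4 of them met the 3 limits. Several members pass this filter through the libraries in which they are high. With rows of at least 0.1 RPKM, which takes in all 9 members, 8, 7 and 5 of the 9 met the limits, against 21.9%, 1.67% and 0.588% of 11058 rows. Near the 4-fold limit Gp1ba lay just inside (4.0-fold) and Pf4 just outside (3.93-fold).

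The 14 rows at the 4-fold limit divide into 3 kinds. Members make up 4 (Gp5 at 14.8-fold, Itgb3 at 10.3-fold, Ppbp at 7.44-fold and Treml1 at 6.61-fold). Another 4 belong to the lists of other platelet genes described below, the granule matrix protein Thbs1 (12.6-fold), the platelet kinase C substrate Plek (8.87-fold), the platelet lipoxygenase Alox12 (7.91-fold) and the granule protein Clu (5.27-fold). The remaining 6 rows name small RNAs (Scarna3a, Mir680-2, Snora23, Snora34, Snora69 and Snord8) and are listed at 0 in both libraries numbered 3. Between 2-fold and 4-fold there were 16 rows, among them Pf4 and 4 genes of the lists (Rasgrp2, Flna, Tpm4 and Cd9), and 11 others such as the fetal hepatoblast genes Dlk1 and Ambp and the nuclear RNA Malat1. All genes named in this paragraph other than the members were chosen after their values were seen.

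**Figure D3:**
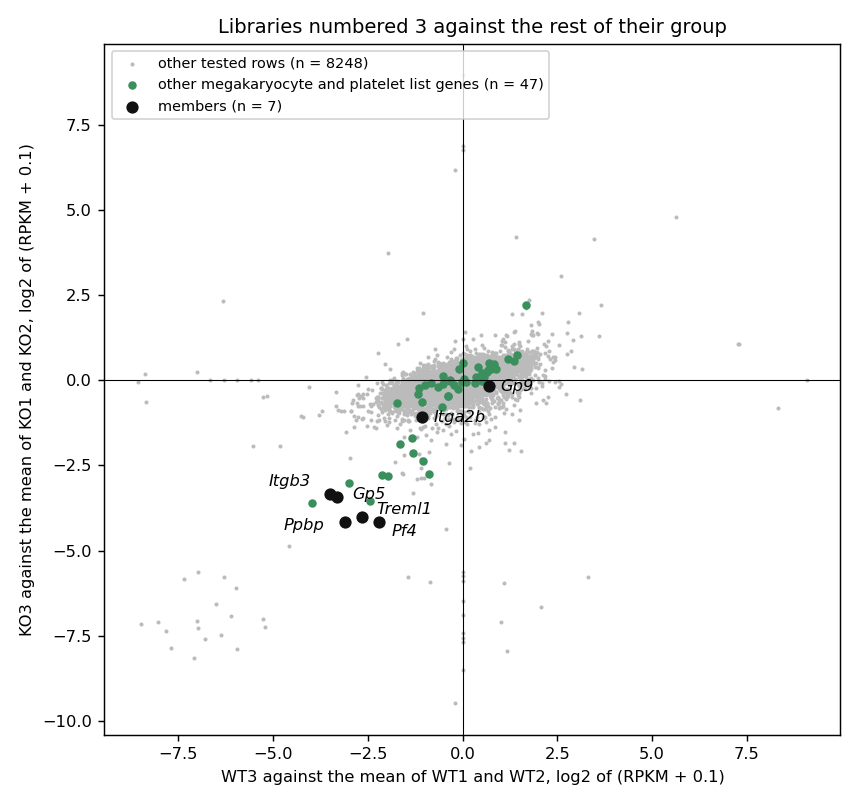
Change of each of 8302 tested rows in WT3 against the mean of WT1 and WT2 (horizontal) and in KO3 against the mean of KO1 and KO2 (vertical), as log2 of RPKM + 0.1. Black points are the 7 tested members, green points other megakaryocyte and platelet rows, grey points the rest, with grey points at the far lower left for rows at or near 0 in both libraries. Gp5, Itgb3, Ppbp, Treml1 and Pf4 lie together at the lower left with some green points, Gp9 within the main cloud.

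The values of WT replicate 3 ran with transcript length: with rows cut into 5 equal classes by transcript length, in the class of shortest transcripts (64 to 1636 bases) its median share of the other WT libraries was 184%, and in the class of longest (4886 bases and over) 56.4%, while for KO replicate 3 these medians were 118% and 92.8%. Pf4, Ppbp, Treml1 and Gp9 belong to the shortest class, Gp5 to the next, and Itgb3 to the longest, as does the row that joins Itga2b and Gpatch8, whose length is the longest of either gene. The low shares of Pf4 (21.3%), Ppbp (10.96%) and Treml1 (12%) in WT replicate 3 therefore stand beside a median of 184% for transcripts of like length, and the 163% of Gp9 beside the same median. Itgb3 at 6.26% stands beside 56.4%. The part of this length trend in the members' values was not tested.

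Other genes of the lineage were read from 5 lists. Of the receptors and adhesion molecules other than the members, 18 of 23 had a mean of at least 0.1 RPKM, and 15 of these 18 were lower in both libraries numbered 3 than in all others, 7 by at least 4-fold. Of all 11058 rows at this level, 21.9% were so placed, and 0.588% by at least 4-fold. The 3 most abundant genes of this list differed among themselves. The integrin chain Itgb1 was at 15.5 RPKM in WT replicate 3 and 22.9 RPKM in KO replicate 3 against 23.7 to 27.1 RPKM in the others, and the thrombin receptor F2r at 6.97 and 13.1 against 13.3 to 18.2 RPKM. Cd36, a thrombospondin and fatty acid receptor that erythroid cells also carry, went the other way, at 33.3 RPKM in WT replicate 3 and 29.3 RPKM in KO replicate 3 against 6.23 to 11.5 RPKM.

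Among granule proteins 9 of 15 genes at this level were low in both libraries numbered 3, and 5 of them by at least 4-fold. The shares of all rows at this level were 21.9% and 0.588%. Thbs1 was at 5.596, 5.03 and 0.244 RPKM in WT and at 5.13, 6.83 and 0.398 RPKM in KO. The most abundant genes of the list did not follow it. Tgfb1, a growth factor of many cell types, ranged from 14.7 to 26.8 RPKM with the highest level in WT replicate 3. The proteoglycan core Srgn was at 9.57 and 8.74 RPKM in WT and KO replicates 3 against 5.49 to 8.62 RPKM. Von Willebrand factor, Vwf, ranged only from 3.83 RPKM in WT replicate 3 to 4.995 RPKM in KO replicate 2.

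In platelet signalling and lipid mediators 13 of 18 genes were low in both libraries numbered 3, 3 by at least 4-fold, and in the cytoskeleton list 9 of 16, none by that much. Beside these counts stand the same shares of all rows, 21.9% and 0.588%. Plek was at 3.01, 2.95 and 0.283 RPKM in WT and at 2.84, 3.79 and 0.320 RPKM in KO. The 3 most abundant genes of each list were not low in both libraries numbered 3. The small GTPase Rap1b ranged from 40.0 to 51.1 RPKM, the kinase Jak2 from 31.3 to 47.5 RPKM and the thromboxane synthase Tbxas1 from 5.80 to 10.9 RPKM. The actin regulators Cfl1 and Pfn1 were highest in the libraries numbered 3, at 932 and 592 RPKM and at 606 and 396 RPKM. The tubulin Tuba4a reached 701 RPKM in WT replicate 3.

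The transcription factor list, which the red cell lineage shares in large part, did not show the pattern. Of 20 genes, 5 were low in both libraries numbered 3 and 1 by at least 4-fold, against 21.9% and 0.588% of all rows. Nfe2, a regulator of platelet release and globin genes, was at 418, 306 and 824 RPKM in WT and at 358, 263 and 478 RPKM in KO. Lmo2 and Tal1, partners in a complex with GATA factors, ranged from 342 to 605 RPKM and from 240 to 395 RPKM. Each of these ranges covers all 6 libraries, and the lowest level of none of them was in a library numbered 3.

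**Figure D4:**
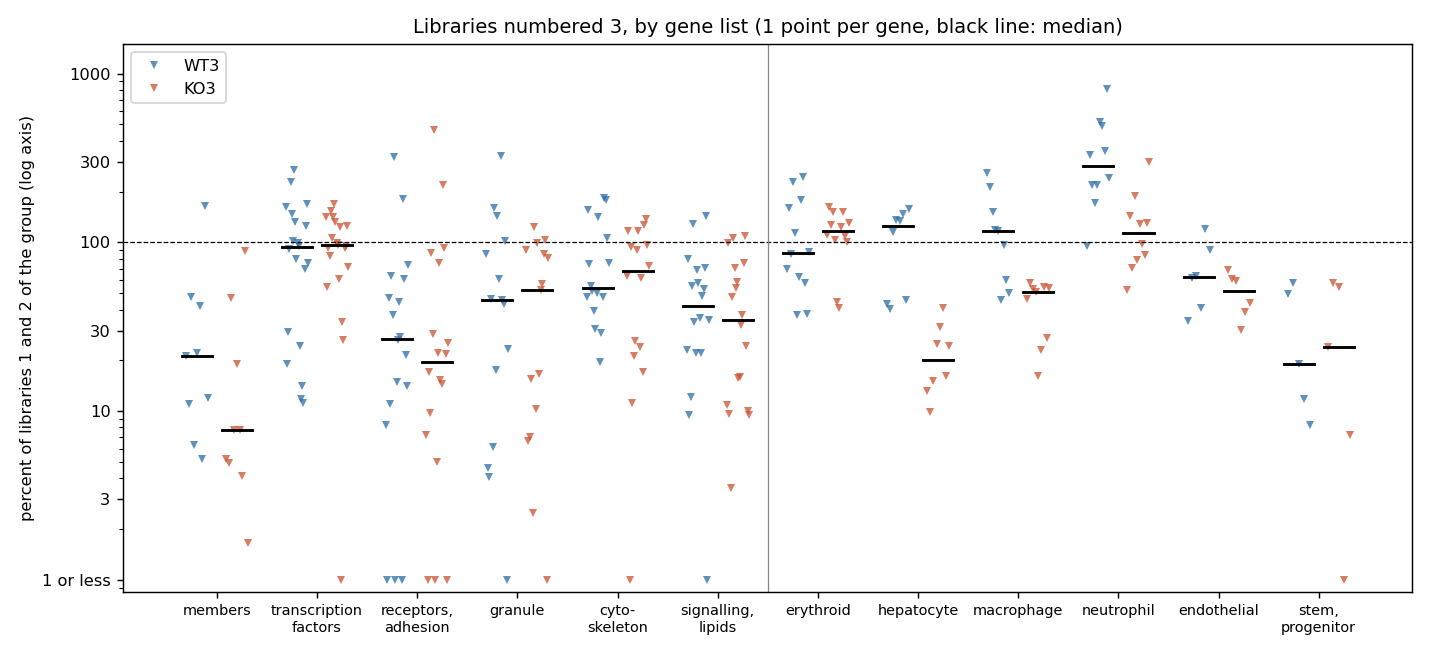
Level in WT3 (blue) and KO3 (orange) as a percent of libraries 1 and 2 of the same group (vertical log axis), 1 triangle per gene with a mean of at least 0.1 RPKM, by list, with black lines for medians and the lowest values drawn at 1. The medians of the members are 21.3% and 7.68%, those of other receptors 26.9% and 19.4%, and those of the erythroid markers 86.6% and 117%.

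Markers of other cell types moved in part with the members. The 12 erythroid markers had a summed level of 15779 and 14484 RPKM in WT and KO replicates 3 against 10875 to 13631 RPKM in the others, none was low in both and none was at 0, so the label of the cells holds in all 6 libraries. The anion exchanger Slc4a1 alone ranged from 3331 to 4681 RPKM. Hepatocyte markers summed to 41.7 RPKM in WT replicate 3 and 15.2 RPKM in KO replicate 3 against 56.4 to 138 RPKM. The genes Alb, Afp and Trf were low in both libraries, at 43.1%, 40.3% and 45.8% of the other WT libraries in WT replicate 3. The other 5 of the 8 were at 116% to 157% there, and all 8 were at 9.94% to 41.0% of the other KO libraries in KO replicate 3. These 3 genes were named after their values were seen. Markers of stem and progenitor cells summed to 0.487 and 0.573 RPKM against 1.71 to 2.46 RPKM, with 4 of the 5 genes of at least 0.1 RPKM low in both. That list overlaps with the megakaryocyte lists. Endothelial markers summed to 1.21 and 1.27 RPKM against 1.54 to 2.48 RPKM, with 4 of 6 genes low in both. Among all rows of at least 0.1 RPKM, 21.9% were low in both. Macrophage markers gave 18.8 RPKM in WT replicate 3, the highest sum, and 4.59 RPKM in KO replicate 3, the lowest. Neutrophil markers gave 175 and 55.9 RPKM against 29.4 to 75.8 RPKM, and mast cell and basophil markers 3.71 and 4.199 RPKM against 0.956 to 3.04 RPKM. The sums of all marker lists are not scaled to the RPKM total of a library, 814665 in WT replicate 3 against 422534 to 535013 in the others. A higher sum in WT replicate 3 therefore need not be a higher share of that library. The part of cell mixture in the pattern of the members was not tested.

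Across the 6 libraries, the tested rows most like the mean of the members' standardized log2 values were 4930506C21Rik (Pearson r = 0.994), the row of Hist3h2a and Trim17 (0.990), Rasgrp2 (0.986), Iqcg (0.981), Sc4mol (0.980), Myl9 (0.980), 2210404J11Rik (0.977) and Omd (0.972). Rasgrp2, an activator of Rap1 in platelets, and Myl9, a myosin light chain, belong to the lists above. Rasgrp2 was at 3.20, 2.40 and 0.647 RPKM in WT and at 2.21, 2.82 and 0.272 RPKM in KO. These coefficients are descriptions over 6 libraries and rest on the 2 numbered 3, and r does not measure size: Omd was at 2.38 and 2.20 RPKM there, against 2.76 to 3.08 RPKM in the other libraries.

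The comparison the study was built for is KO against WT. Tfam itself was at 7.22, 8.44 and 5.72 RPKM in WT and at 5.92, 7.22 and 6.25 RPKM in KO and overlapped between groups (exact two-sided permutation test, p = 0.7, with 0.1 the smallest possible). Gene-level RPKM does not separate a deleted exon, so this level does not check the labels. The summed level of the 9 rows was 66.5 ± 22.8 RPKM in WT and 66.4 ± 35.0 RPKM in KO (SD, n = 3), from 82.5, 76.6 and 40.4 RPKM and from 80.1, 92.5 and 26.7 RPKM. Group means differed by less than the SD of either group for 8 of the 9 rows, all but Gp9 (17.3 ± 5.25 RPKM in WT and 13.03 ± 1.13 RPKM in KO). In those 8 rows each SD takes in the low library numbered 3, so this does not show that the groups were alike. Pf4 was at 16.2 ± 10.2 RPKM in WT and 15.5 ± 13.1 RPKM in KO, and Itgb3 at 2.48 ± 2.02 and 2.73 ± 2.10 RPKM (SD, n = 3).

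With limma on log2(RPKM + 1), 0 of 7 tested members passed an adjusted p of 0.05 (0% of the 8302 rows passed, and 100 had an unadjusted p under 0.05, none of them a member). Adjusted p for the members was 0.909 to 0.981. For the chemokines the log2 fold change of KO against WT was -0.45 (95% interval -2.82 to 1.93) for Pf4 and -0.10 (-2.54 to 2.33) for Ppbp. This fit does not use the library numbers. Its interval for Pf4 reaches past 4-fold lower in KO, and that for Ppbp past 4-fold in both directions. With the replicate number as a block, a pairing that no label states, the intervals were -1.31 to 0.42 for Pf4 and -0.58 to 0.37 for Ppbp. For the fibrinogen receptor the log2 fold change without the block was 0.33 (-0.59 to 1.24) in the Itga2b row and 0.10 (-1.53 to 1.73) for Itgb3. Gp5 had -0.04 (-1.23 to 1.15), Gp9 -0.35 (-0.86 to 0.15) and Treml1 -0.11 (-1.38 to 1.16). The interval of Gp9 was the narrowest of the 7. The median over these 7 was -0.10, beside -0.02 over all tested rows. The added 1 RPKM narrows the intervals of low genes on this scale. With 0.1 added in its place they were -3.0 to 2.8 for Gp5, -3.4 to 2.4 for Treml1 and -2.7 to 3.1 for Itgb3. Each of these reaches past 4-fold in both directions. Gp1ba and the Gp1bb row were below the filter. In a fit with no filter, where 0% of 15868 rows passed, their values were -0.03 (-0.80 to 0.74) and -0.22 (-0.97 to 0.54).

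The intervals were narrower without both libraries numbered 3. For the members low in those libraries this had to follow, because the libraries left out were the ones known to be low. These intervals rest on the libraries numbered 1 and 2 only and do not show that KO and WT were alike. The interval for Pf4 was then -0.47 to 0.52 around 0.02, that for Ppbp -0.56 to 0.76 around 0.10, that for Gp5 -0.46 to 0.36 around -0.05 and that for Treml1 -0.48 to 0.43 around -0.02, with 0 of 7 members past the threshold. Gp9 was at -0.08 without both and at -0.13 without WT replicate 3 alone, against -0.35 with all libraries. Compared within numbers, KO over WT for Pf4 was 0.758 in the libraries numbered 1, 1.36 in those numbered 2 and 0.251 in those numbered 3. For Ppbp these ratios were 0.977, 1.19 and 0.492, for Gp5 0.698, 1.27 and 0.758, and for Treml1 0.693, 1.39 and 0.133. In these 4 genes KO was lower in the libraries numbered 1 and 3 and higher in those numbered 2. Only the Itga2b row was higher in KO within all 3 numbers (1.33, 1.22 and 1.27), and Gp9 (0.898, 0.991 and 0.514) and the Gp1bb row (0.892, 0.913 and 0.166) were lower in KO within all 3. The share of all rows with the same direction within all 3 numbers was not counted. These directions are therefore descriptions and do not set the members apart from other rows. With the number as a block the Itga2b row had a log2 fold change of 0.33 (0.01 to 0.64) and an adjusted p of 0.715 in limma (range over its alternatives 0.681 to 1), and again 0% of rows passed.

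**Figure D5:**
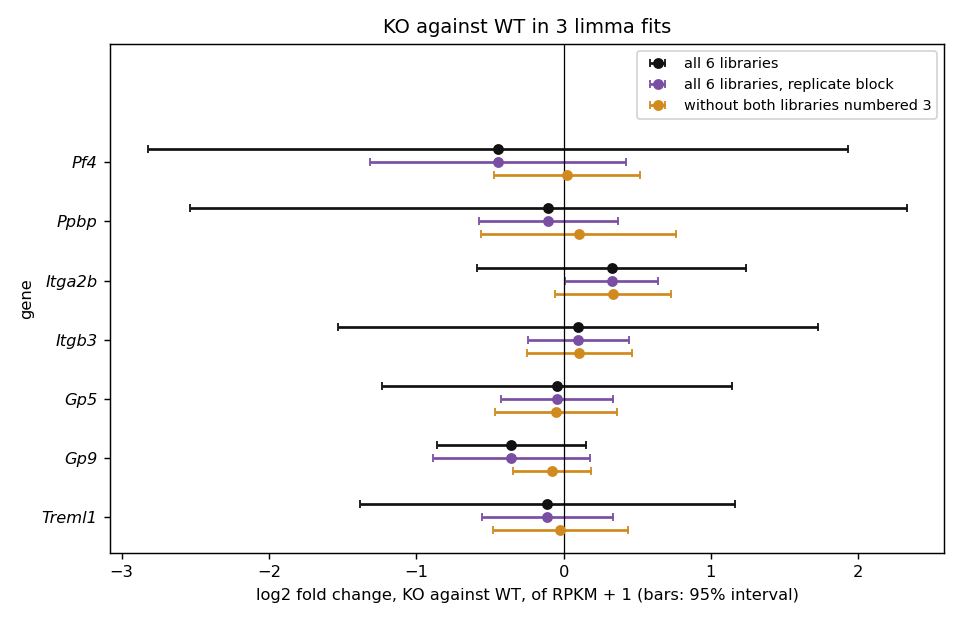
Log2 fold change of KO against WT on RPKM + 1 (horizontal) with 95% intervals for the 7 tested members, from limma with all 6 libraries, with the replicate number as a block, and without both libraries numbered 3. The interval of Pf4 narrows from -2.82 to 1.93 with all libraries to -0.47 to 0.52 without those numbered 3. The libraries left out were known to be low in Pf4, so this narrowing had to follow.

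In the 5 lists of other megakaryocyte and platelet genes 0 of 45 tested genes passed limma's adjusted p of 0.05 for KO against WT. Fitted values were higher in KO for 3 of 13 transcription factors, 3 of 4 receptors, 5 of 7 granule proteins, 7 of 14 cytoskeletal genes and 5 of 7 signalling genes. The medians of their log2 fold changes were -0.09, 0.20, 0.10, -0.01 and 0.09.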

How the data were processed

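RNA of 6 libraries was sequenced after TruSeq preparation on an Illumina instrument, per the labels' protocols. The authors deposited RPKM values made with TopHat and Cufflinks on build mm9, per the submitters' processing notes. Tool versions were not given in the sources used here, and neither were gene models or any use of strand. Dividing by length and library total lets a library with a length trend shift short and long transcripts. No counts were available, so the number of reads behind a value is unknown. Comparing rows under 0.05 RPKM between libraries put KO replicate 3 at 79.6%, KO replicate 2 at 84.1% and WT replicate 1 at 88.6% of the depth of WT replicate 2, while KO replicate 1 and WT replicate 3 were poorly resolved.

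Of 23119 rows, 25 with a number for a name were left out (0.158% of the RPKM sum), and a symbol on several rows was read from the row with the highest mean. limma 3.58.1 (R 4.3.3) tested the 8302 rows with a mean of at least 1 RPKM as log2(RPKM + 1), a scale that understates changes of low genes, with a mean-variance trend and Benjamini-Hochberg adjustment. The script was tested on simulated data. Transcript lengths are the longest per row in the GENCODE basic annotation of GRCm38. Figures used Python 3.11.15 and matplotlib 3.10.9. The alternatives were other filters, a pseudocount of 0.1, other scalings, library weights, the replicate block and left-out libraries. Deviations from the group means correlated at 0.46, 0.17 and 0.53 between libraries numbered 1, 2 and 3. These values met the rule of over 0.1 for taking the numbers as pairs. The pairing was used only in the fit with the replicate block, and the main fit did not pair the libraries. No label states such a pairing. WT replicate 2 correlated more with KO replicate 1 (0.40) than with KO replicate 2. The check therefore separates number 3 from the rest but not 1 from 2.

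The members and lists were chosen with earlier results of these data known. By rule the text names the members, Tfam, the 3 most abundant genes of each list and the 8 rows most like the members; other genes were chosen after their values were seen.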

Additional observations from a re-analysis of the deposited data

How the results depend on the processing

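Of 8302 tested rows 0 passed for KO against WT with all libraries. The count was 2 (Snord67 and Snord96a) without both libraries numbered 3, 60 with library weights and 0 to 2 when a single library was left out (1 without WT replicate 3, 2 without KO replicate 2, 1 without KO replicate 3); the library weights had not fully converged. No member passed in any of these fits. With the replicate block, pairing libraries by number, 0 rows passed and no call changed. The sign of most members' log2 fold change turned with the libraries used. Without both libraries numbered 3 it was 0.024 for Pf4 and 0.10 for Ppbp, and with library weights -0.35 for Itgb3. Leaving out each library in turn gave -1.15 to 0.69 for Pf4, -0.0050 to 0.66 for the Itga2b row, -0.53 to 0.74 for Itgb3, -0.47 to -0.13 for Gp9 (which kept its sign), -0.50 to 0.40 for Gp5, -0.94 to 0.94 for Ppbp, -0.55 to 0.41 for Treml1 and -0.24 to 0.0032 for Tfam. The pattern of the libraries numbered 3 held 6 tested members below the other 4 libraries under both other scalings, alternatives chosen after seeing the data. The rows so placed numbered 2856 with upper-quartile scaling, 49 at 2-fold and 16 at 4-fold, with 5 tested members at each of the fold limits. After quantile normalization 17 rows met the 2-fold and 9 the 4-fold limit, with 5 and 2 members, so the 4-fold count of members rests on the scaling. The cause was not tested. Low levels in RPKM carry few reads, and no interval for single values could be given.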
